A study of Mus musculus with 4 samples.

Results

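The 38 collagen genes outside type IV were followed through maps of transcription initiation in mouse fetal liver and yolk sac. They are the protein-coding genes of GENCODE vM21 whose symbol has the form Col, number, a, number, without Col4a1 to Col4a6, and they were taken from 21938 protein-coding genes in all. The study mapped engaged RNA polymerase by PRO-seq, a nuclear run-on assay, in 2 liver and 2 yolk sac libraries. Each library pooled tissue of 6 embryos at E14.5 from C57BL/6J mothers. The sires had a mixed C57BL/6J and CAST/EiJ background and carried CAST/EiJ alleles over the Dlk1/Gtl2 locus of chromosome 12. Both tissues share this cross, no genotype or treatment differs between the groups, and the strain field of the samples spells the first background C57BL/6h. The values are dREG peaks, intervals that a classifier scores as transcription start regions, so they report where initiation was called and not how much RNA was made. Liver replicates 1 and 2 gave 24863 and 24333 peaks, and yolk sac replicates 1 and 2 gave 50525 and 43055. No read counts accompany the peaks, so sequencing depth is unknown.

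Collagens are proteins of the extracellular matrix built from 3 chains that wind into a triple helix, and the chains of 1 collagen type are often encoded by separate genes. Fibrillar collagens form the fibrils of connective tissue, FACIT collagens (fibril-associated collagens with interrupted triple helices) sit on those fibrils, and type VI collagen forms beaded filaments around cells. In the fetal liver, stellate cells and other mesenchymal cells make much of the fibrillar collagen, while most cells of the organ are blood-forming. The yolk sac consists of an endoderm layer, a mesoderm with vessels, and a mesothelial covering, and its mesoderm holds fibroblast-like cells.

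More collagen promoters carried a peak in yolk sac than in liver. A gene was called in a library when a peak overlapped the window of 500 bp on either side of any of its annotated starts. By this rule 12 and 16 of the 38 genes were called in liver replicates 1 and 2, and 28 and 25 in yolk sac replicates 1 and 2. The background, the share of all protein-coding genes called in the same libraries, was 56.1% and 57.9% in liver and 63.8% and 62.5% in yolk sac. On average the called collagens numbered 14 ± 2.83 for liver and 26.5 ± 2.12 for yolk sac (SD, n = 2), or 36.8% against 69.7%. Both liver libraries called 12 collagens (background 55.2%), and both yolk sac libraries called 25 (background 61.9%). The difference of 12.5 genes exceeded the spread between replicates and had p = 0.333 in an exact two-sided permutation test, the smallest value that 2 libraries against 2 allow. No difference between tissues below can have a smaller p, and p is larger where the libraries of the tissues overlap. In bulk tissue, fewer collagen-making cells and less initiation or RNA per cell cannot be told apart.

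Of the 38 genes, 12 were called in all 4 libraries, beside a background of 53.8% of all protein-coding genes. A further 9 were yolk-sac-only, with a peak in each yolk sac library and no liver peak, beside a background of 5.26%. None was liver-only, the reverse pattern, beside a background of 1.01%. Other combinations accounted for 7 genes (background 5.73%), and 10 genes had no promoter peak in any library (background 34.2%). The 9 yolk-sac-only genes make up 23.7% of the collagens. The yolk sac lists are longer, so the calls were repeated on the 24333 highest-scoring peaks of each list. Then 11 genes were called in all 4 libraries (background 46.7%), 5 were yolk-sac-only (background 2.61%) and 0 were liver-only (background 3.01%). The 5 were Col2a1, Col24a1, Col6a1, Col8a2 and Col9a2, all among the 9.

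**Figure D1:**
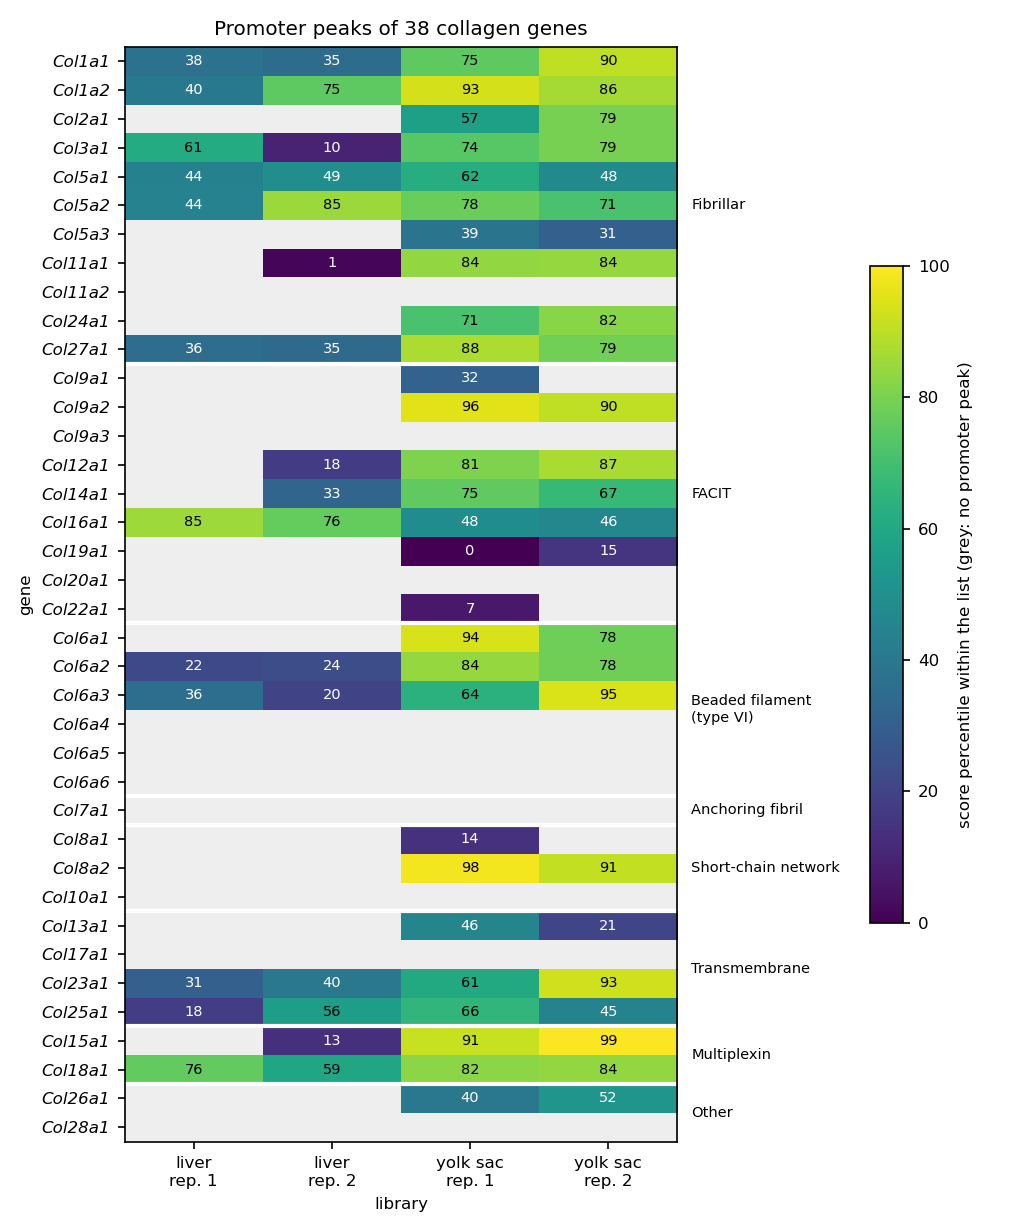
Score percentile of the promoter peak of each of the 38 collagen genes (rows, by class) in each library (columns). Grey marks no promoter peak, and the percentile is the rank of the score within its own list. No collagen gene is liver-only, and at Col16a1 both liver percentiles exceed both yolk sac percentiles.

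Most fibrillar genes were called in yolk sac. Of the 11 genes, 6 and 7 had a promoter peak in the liver libraries and 10 in each yolk sac library, or 6 and 7 against 9 and 9 in lists of equal length. Values for each gene are given as score percentiles, the rank of the peak's score within its own list, where 100 is the highest, in the order liver replicates 1 and 2, then yolk sac replicates 1 and 2. Col1a1 and Col1a2 encode the chains of type I collagen, the main fibrillar collagen of most connective tissues. The Col1a1 peak lay at 37.6 and 35.2 in liver and at 75.1 and 90.4 in yolk sac. The Col1a2 peak lay at 40.5 and 75.3 in liver and at 93.4 and 86.5 in yolk sac. For both genes each yolk sac library was above each liver library.

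Col3a1, which encodes type III collagen, abundant in soft and vascular tissue, had percentiles of 61.4 and 10.2 in liver and 73.9 and 79.4 in yolk sac. Between the liver replicates Col3a1 differed widely, and both were below the yolk sac. They overlapped it in lists of equal length, at 60.5 and 10.2 against 45.9 and 63.5. Col5a1 and Col5a2, whose chains form type V collagen and help to set fibril diameter, were also called in all 4 libraries. Col5a1 lay at 43.8 and 49.0 against 62.2 and 47.9, and Col5a2 at 44.3 and 84.9 against 77.6 and 71.3. The tissues overlapped for both genes. The third type V gene, Col5a3, was yolk-sac-only, at 38.6 and 30.8. Its peaks were 452 and 252 bp wide, and Col5a3 lost them in lists of equal length.

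Col27a1, a fibrillar collagen known from cartilage, had percentiles of 35.8 and 34.7 in liver and 87.6 and 78.9 in yolk sac, with no overlap. Col24a1, another minor fibrillar collagen, was yolk-sac-only at 71.3 and 82.2, with peaks of 1602 and 1552 bp. Liver replicate 2 had a peak of 552 bp inside the same stretch, from 779 to 1330 bp after the Col24a1 5′ end and at percentile 17.3. It lay outside the 500 bp window and counted as a body peak, and a window of 1000 bp would end the yolk-sac-only call of Col24a1. Col2a1, the main collagen of cartilage, was yolk-sac-only at 56.9 and 79.4. The Col2a1 peak lay beside the start of an annotated processed transcript 2808 bp inside the gene. At the 5′ end of Col2a1 itself a peak was called in yolk sac replicate 2 alone, with a width of 102 bp and a percentile of 1.28. Taking the most upstream start of each gene as its promoter therefore removed Col2a1 from the yolk-sac-only genes.

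Col11a1, whose product joins type V or type II collagen in mixed fibrils, was called in liver replicate 2 and in both yolk sac libraries. Its percentiles were 1.27 in that liver library and 83.6 and 84.3 in yolk sac. The liver peak was 102 bp wide and the yolk sac peaks 3052 and 2802 bp. The liver call was therefore both narrow and near the bottom of its list. Its partner gene Col11a2 was the 1 fibrillar gene with no promoter peak in any library.

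Promoter sequences were compared for a subset of these genes because their tissue patterns differ. Each is the stretch of 150 bases before the start, 5′ to 3′ on the gene's strand, from RefSeq on GRCm38.p6. Capitals mark 3 motifs. The first is the core promoter element with the letters TATAAA. The second is the box with the letters CCAAT, which read ATTGG where the motif is on the opposite strand. The third, called the GC box, is bound by Sp1-type factors and has the letters GGGCGG, read as CCGCCC from the opposite strand. The first 3 genes were called in all 4 libraries, Col11a1 in liver replicate 2 and both yolk sac libraries, and Col24a1 in both yolk sac libraries alone. Col10a1 had no promoter peak.
Col3a1 (chr1:45311388-45311537, plus strand): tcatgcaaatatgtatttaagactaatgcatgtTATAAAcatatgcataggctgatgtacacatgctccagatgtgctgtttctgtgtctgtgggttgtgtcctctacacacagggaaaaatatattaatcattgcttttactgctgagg
Col5a1 (chr2:27886275-27886424, plus strand): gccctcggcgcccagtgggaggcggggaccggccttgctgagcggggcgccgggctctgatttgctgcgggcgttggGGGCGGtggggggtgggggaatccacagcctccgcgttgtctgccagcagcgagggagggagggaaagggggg
Col6a3 (chr1:90843972-90844121, minus strand): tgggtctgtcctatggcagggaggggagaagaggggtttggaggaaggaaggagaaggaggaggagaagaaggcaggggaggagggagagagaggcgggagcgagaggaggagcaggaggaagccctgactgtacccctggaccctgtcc
Col11a1 (chr3:114030390-114030539, plus strand): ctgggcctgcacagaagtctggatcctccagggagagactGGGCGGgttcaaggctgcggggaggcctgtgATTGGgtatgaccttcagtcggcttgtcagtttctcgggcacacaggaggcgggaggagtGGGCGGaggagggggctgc
Col24a1 (chr3:145292322-145292471, plus strand): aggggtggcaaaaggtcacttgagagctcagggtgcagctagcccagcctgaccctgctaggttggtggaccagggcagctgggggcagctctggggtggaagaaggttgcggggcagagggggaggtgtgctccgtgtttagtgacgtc
Col10a1 (chr10:34389831-34389980, plus strand): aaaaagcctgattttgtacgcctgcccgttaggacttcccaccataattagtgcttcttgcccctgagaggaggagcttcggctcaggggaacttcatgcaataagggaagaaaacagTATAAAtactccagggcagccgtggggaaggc

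In the stretches shown Col5a1 held 1 GC box, at -73 from the start, and Col11a1 held GC boxes at -110 and -19 and a CCAAT box at -79. Col10a1 held a TATA box at -32, and in Col3a1 these letters stood at -117. Neither Col24a1 nor Col6a3 held any of the 3 motifs in the stretch shown. RefSeq promoters of 300 bases, from 250 before to 50 after the start, were matched for 30 of the 38 genes, which had 33 such promoters. The GC box occurred on either strand in 57.6% of the 33, against 35.7% of 32851 promoters in the same table. The TATA box occurred in 15.2% against 13.6% and the CCAAT box in 30.3% against 37.4%. The letters TGANTCA (AP-1 site) occurred in 3.03% against 7.81%, GGAATG (TEAD site) in 12.1% against 14.7%, and ACAAAG (SOX site) in 15.2% against 18.7%, each on both strands and with overlaps allowed. The median GC content was 59.7% in the collagen promoters and 52.7% in the table. That table covers 27025 genes, a larger set than the 21938 protein-coding genes used as background elsewhere.

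Collagen promoters called in yolk sac and those with no peak were set side by side. The median ratio of observed to expected CpG was 0.538 in the 21 promoters of genes that both yolk sac libraries called and 0.374 in the 9 promoters of genes with no peak, beside 0.384 in the whole table. The TATA letters occurred in 2 of the 21, at -237 in Col13a1 and at -117 in Col3a1. They occurred in 3 of the 9, at -32 in Col10a1, at -143 in Col11a2, and at -140 and -91 in Col17a1. The SOX site letters occurred in 1 of the 21, Col3a1, and in 4 of the 9, Col10a1, Col17a1, Col20a1 and Col28a1. The other motifs differed less: the GC box occurred in 13 of the 21 and 5 of the 9, and the CCAAT box in 6 and 3. The TEAD site occurred in 3 and 1, and the AP-1 site in 1 and 0. The 3 genes without a peak that held TATA letters encode components of growth-plate cartilage, of cartilage fibrils and of epithelial hemidesmosomes. A match to a motif is a description of these letters and not of a bound factor.

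Of 9 FACIT genes, 1 and 3 had a promoter peak in the liver libraries and 7 and 5 in the yolk sac libraries. The background was 56.1% and 57.9% in liver, above these counts, and 63.8% and 62.5% in yolk sac. The counts became 1 and 3 against 3 and 4 in lists of equal length, and the tissues overlapped. Col12a1 and Col14a1 encode collagens on the surface of fibrils in dense connective tissue. Col12a1 was not called in liver replicate 1, and lay at 17.8 in liver replicate 2 and at 80.6 and 87.2 in yolk sac. Col14a1 was likewise absent from liver replicate 1 and lay at 32.7, then at 75.5 and 66.8. Both genes were thus lower in the single liver library that called them than in either yolk sac library.

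Col16a1, another fibril-associated collagen, was the exception among genes called in all 4 libraries. Its percentiles were 85.4 and 76.4 in liver and 48.5 and 46.2 in yolk sac. Liver was higher without overlap. Its peaks were nevertheless narrower in liver, at 852 and 902 bp against 1452 and 1302 bp. In the lists of equal length the peak of yolk sac replicate 1 at Col16a1 was lost.

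Type IX collagen of cartilage gave 3 different patterns. Col9a2 was yolk-sac-only at the high percentiles of 95.6 and 90.5, with wide peaks of 3852 and 3452 bp. Col9a1 was called in yolk sac replicate 1 alone, at 31.6, beside a coding start 17577 bp inside the gene. Col9a3 had no promoter peak. Other FACIT genes were faint: Col19a1 was yolk-sac-only at 0.344 and 14.9, and Col22a1 was called in yolk sac replicate 1 alone at 6.71. Both had peaks of 102 bp in yolk sac replicate 1. Col20a1 was called in no library.

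Type VI collagen is assembled mainly from the products of Col6a1, Col6a2 and Col6a3, and these were the type VI genes with promoter peaks. The Col6a1 peak was yolk-sac-only at 93.8 and 77.8, with widths of 2752 and 2402 bp. Col6a2 was called in all 4 libraries, at 22.0 and 23.6 in liver and 84.1 and 78.4 in yolk sac. Col6a3 lay at 36.3 and 20.3 in liver and 63.8 and 94.5 in yolk sac. Col6a2 and Col6a3 were thus higher in each yolk sac library. For Col6a3 this no longer held in lists of equal length, at 34.9 and 20.3 against 24.8 and 90.3. Col6a4, Col6a5 and Col6a6, the neighbours of one another on chromosome 9, had neither promoter nor body peaks in any library.

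Col6a1 and Col6a2 lie in the same orientation on the minus strand of chromosome 10, and the interval between them held more peaks in yolk sac. This stretch, chr10:76623631-76708791 of mm10, spans 85161 bp and contains the annotated gene Gm35608. It held 0 and 1 peaks in the liver libraries and 13 and 10 in the yolk sac libraries. In lists of equal length the counts were 0 and 1 against 4 and 4. Of the 13 merged regions, 9 were yolk-sac-only. The region with the highest pair of percentiles, chr10:76642751-76644702, reached 88.5 and 98.5. The 4 other intervals between adjacent collagen genes held 0 or 1 peaks per library, but they are shorter, from 9205 to 28810 bp. Those among Col6a4, Col6a5 and Col6a6 lie between genes without peaks. No background over other intergenic stretches is given here.

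**Figure D2:**
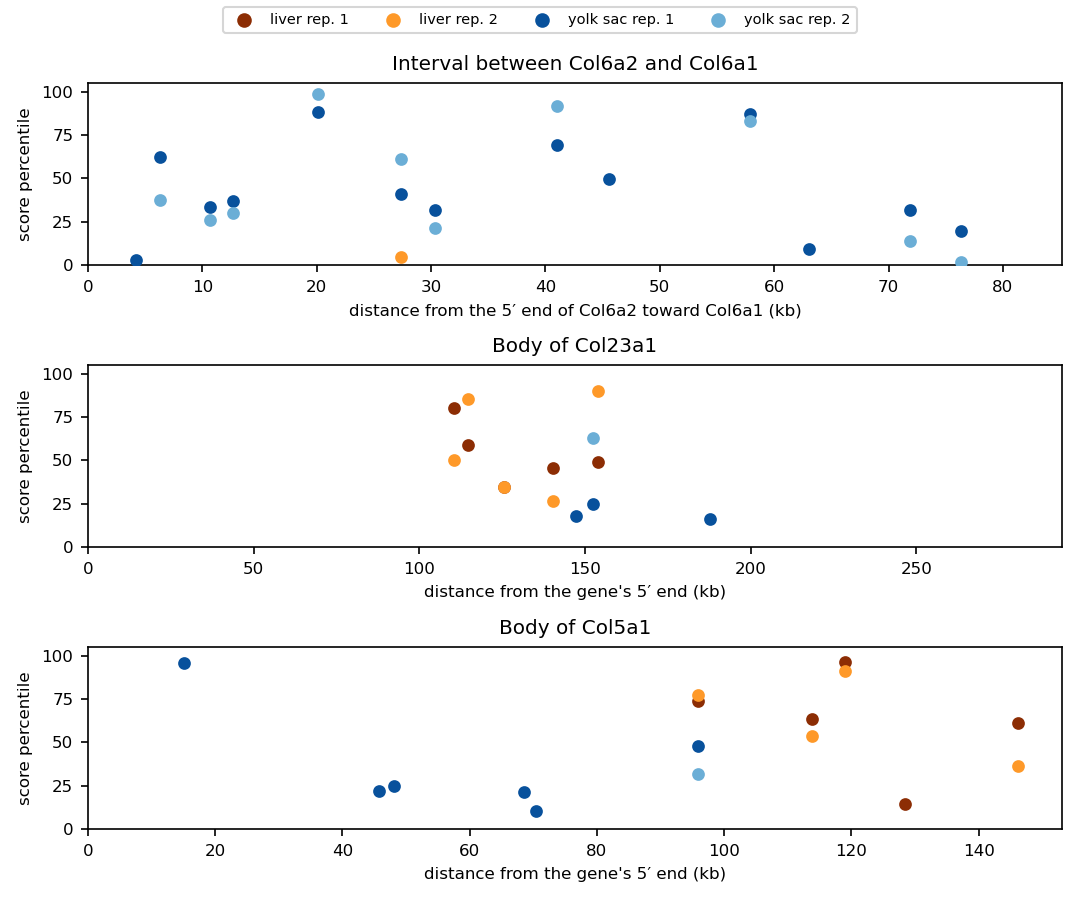
Score percentile (vertical axis) of each dREG peak against distance in kb from the gene's 5′ end (horizontal axis), for the interval between Col6a2 and Col6a1 and for the bodies of Col23a1 and Col5a1. Colours stand for the 4 libraries. The Col6a2 to Col6a1 interval holds 13 and 10 yolk sac peaks and 1 liver peak, and Col23a1 and Col5a1 hold 5 and 3 regions called in both liver libraries alone.

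The remaining classes were small. Col7a1, the collagen of anchoring fibrils below the epidermis, had no peak. Col8a2 and Col8a1 encode short-chain collagens of vessel and corneal membranes. Col8a2 was yolk-sac-only at 98.1 and 90.7, and both of its coding starts, 13737 bp apart, were called in both yolk sac libraries. Col8a1 was called in yolk sac replicate 1 alone at 14.2. Col10a1, the product of hypertrophic cartilage, had no peak.

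Among transmembrane collagens, Col23a1 and Col25a1 were called in all 4 libraries. Col23a1 lay at 30.7 and 40.1 in liver and 60.9 and 92.9 in yolk sac. Col25a1 lay at 18.2 and 55.7 in liver and 66.0 and 44.5 in yolk sac. Col23a1 was separated by tissue and Col25a1 was not. Col23a1 also overlapped in lists of equal length, at 29.2 and 40.1 against 18.8 and 87.4. Col13a1, found at cell adhesion sites and the neuromuscular junction, was yolk-sac-only at 45.7 and 20.9, and lost its peaks in lists of equal length. Col17a1 had no promoter peak. Col26a1 was yolk-sac-only at 39.9 and 52.2, and Col28a1 was not called.

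The multiplexins Col15a1 and Col18a1 are basement membrane collagens, and the end of the Col18a1 product is the source of endostatin. Col15a1 was absent from liver replicate 1, and its calls came from 3 separate starts. The 5′ end was yolk-sac-only, at 91.4 and 58.4, and so was a start 50374 bp inside the gene, at 69.7 and 99.3. A coding start 95561 bp inside the gene was called in liver replicate 2, at 13.4, and in both yolk sac libraries, at 65.6 and 36.4. The peaks at this shared start were 102 bp wide in liver and 652 and 302 bp in yolk sac. Col18a1 was called in all 4 libraries, at 76.1 and 59.0 in liver and 82.5 and 83.8 in yolk sac.

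Col18a1 showed a difference between its annotated coding starts. The starts at the 5′ end and 52602 bp inside the gene were called in all 4 libraries, while the start 77120 bp inside the gene was yolk-sac-only. The peak at 52602 bp had nearly the same width everywhere, 2952 and 2802 bp in liver and 2802 and 2902 bp in yolk sac. At the 5′ end the widths were 852 and 752 bp in liver and 1552 and 1302 bp in yolk sac. In yolk sac the highest-scoring promoter peak was the one at 77120 bp, 1552 and 1352 bp wide, and it stands for Col18a1 in the values of width and percentile.

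Calls at annotated starts also differed by tissue or position at Col1a2, Col27a1 and Col25a1. At Col1a2 a retained-intron start 15810 bp inside the gene was yolk-sac-only, while the coding start at 679 bp was called in all 4 libraries. At Col27a1 the 5′ end, a retained-intron transcript, was yolk-sac-only and the coding start at 1431 bp was called in all 4. In yolk sac replicate 1 a single peak of 3702 bp covered both Col27a1 starts, while replicate 2 had a separate peak at each. The liver peaks began 1797 and 1597 bp after the 5′ end, and a window of 250 bp ended the call of Col27a1 in all 4. At Col25a1 the start 49390 bp inside the gene was called in all 4 libraries and the 5′ end in none. The peaks were not assigned to a strand or a transcript, so a call names the nearest annotated starts. Some promoter peaks also lay within 500 bp of a start of another gene that is not protein-coding. These genes were Gm43921 at Col1a2, Gm47302 at Col3a1, 2810430I11Rik at Col5a1, Gm12426 at the Col15a1 5′ end and Gm12963 at Col16a1.

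Where a collagen promoter was called in both tissues, its peak was mostly wider in yolk sac. Over the 12 genes called in all 4 libraries the median width was 902 and 1052 bp in liver and 2702 and 2052 bp in yolk sac. Averaged by tissue this was 977 ± 106 and 2377 ± 460 bp (SD, n = 2; exact permutation p = 0.333). Over the 11805 protein-coding genes called in all 4, the medians were 1702 and 1552 bp in liver and 1752 and 1602 bp in yolk sac. Each yolk sac peak was wider than each liver peak for 10 of the 12 collagens, beside a background of 34.5%. The reverse held for 1, Col18a1, beside a background of 20.9%, and the tissues overlapped for Col25a1. For Col18a1 the tissues are represented by peaks at different starts. At its shared start 52602 bp inside the gene the widths overlapped, and at its 5′ end yolk sac was wider. The median ratio of yolk sac to liver width was 2.58 for the 12 genes and 1.04 for all genes.

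The widest collagen peaks were at type I and type XII genes. At Col1a2 the widths were 1302 and 1652 bp in liver and 9652 and 4602 bp across the yolk sac. The peak of yolk sac replicate 1 at Col1a2 was the widest of the 50525 peaks in its list. At Col12a1 they were 1052 bp in liver replicate 2 and 7602 and 7352 bp in yolk sac, ranking 4 and 3 by width in the yolk sac lists. These yolk sac peaks reached upstream of the gene's 5′ end as well as into the gene, as the maps of peaks around the starts show.

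At Col1a1 the widths were 652 and 1752 bp in liver and 6302 and 5452 bp in yolk sac. Liver replicate 1 had a separate peak of 152 bp at the Col1a1 5′ end beside its highest-scoring one. At Col5a1 they were 1652 and 1502 bp against 4202 and 3752 bp, although the percentiles of Col5a1 overlapped between tissues. At Col3a1 they were 1852 and 302 bp against 3452 and 3202 bp, and liver replicate 2 had a further separate peak inside the stretch that the yolk sac peaks cover. Each of these genes was wider in every yolk sac library than in every liver library.

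For the other genes wider in yolk sac, Col27a1 had 952 and 1202 bp in liver against 3702 and 2002 bp, and Col5a2 had 1002 and 1252 bp against 2602 and 2102 bp. Col6a2 had 602 and 752 bp against 2802 and 2602 bp, and Col6a3 402 and 302 bp against 1902 and 1952 bp. Col23a1 had 402 and 802 bp against 1202 and 1052 bp. Col14a1, called in liver replicate 2 but not replicate 1, had 1152 bp in liver and 3052 bp in each yolk sac library. At Col25a1 the widths were 502 and 802 bp against 802 and 552 bp.

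**Figure D3:**
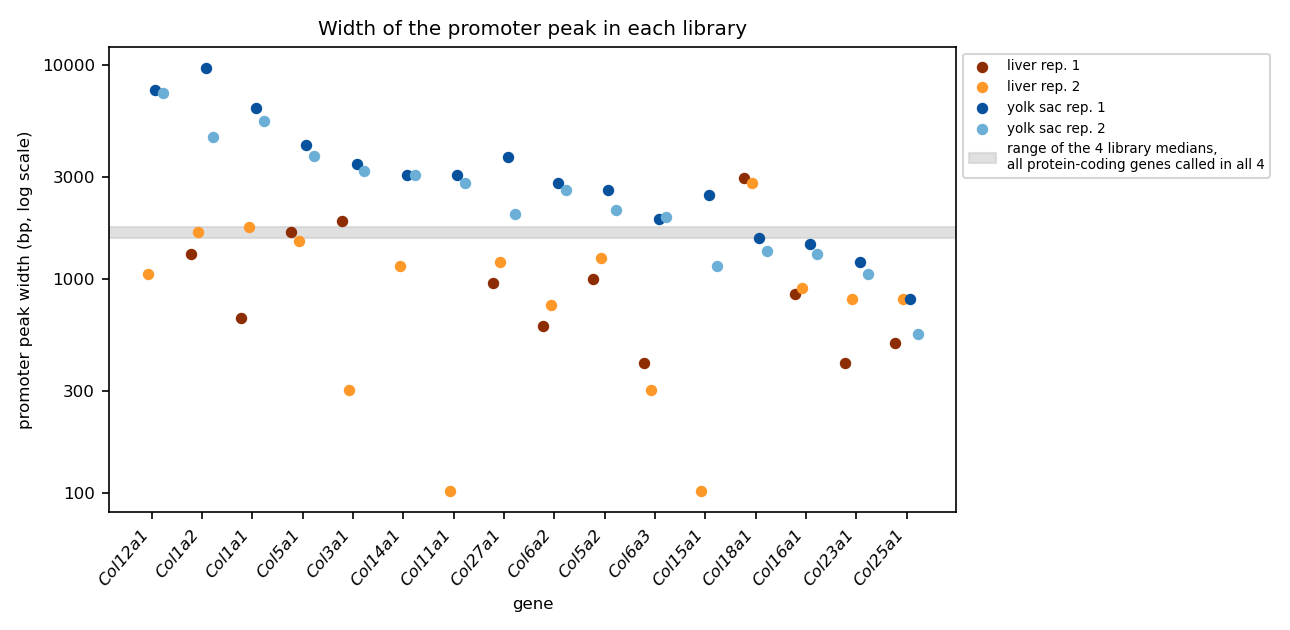
Width in bp (vertical axis, log scale) of the promoter peak of each collagen gene called in at least 1 liver library and both yolk sac libraries, 1 point per library. The grey band spans the 4 library medians over all protein-coding genes called in all 4 libraries, 1552 to 1752 bp. Yolk sac points lie above liver points except at Col18a1, where they lie below, and Col25a1, where they overlap. At Col15a1 and Col18a1 the points of the tissues stand for peaks at different starts.

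**Figure D4:**
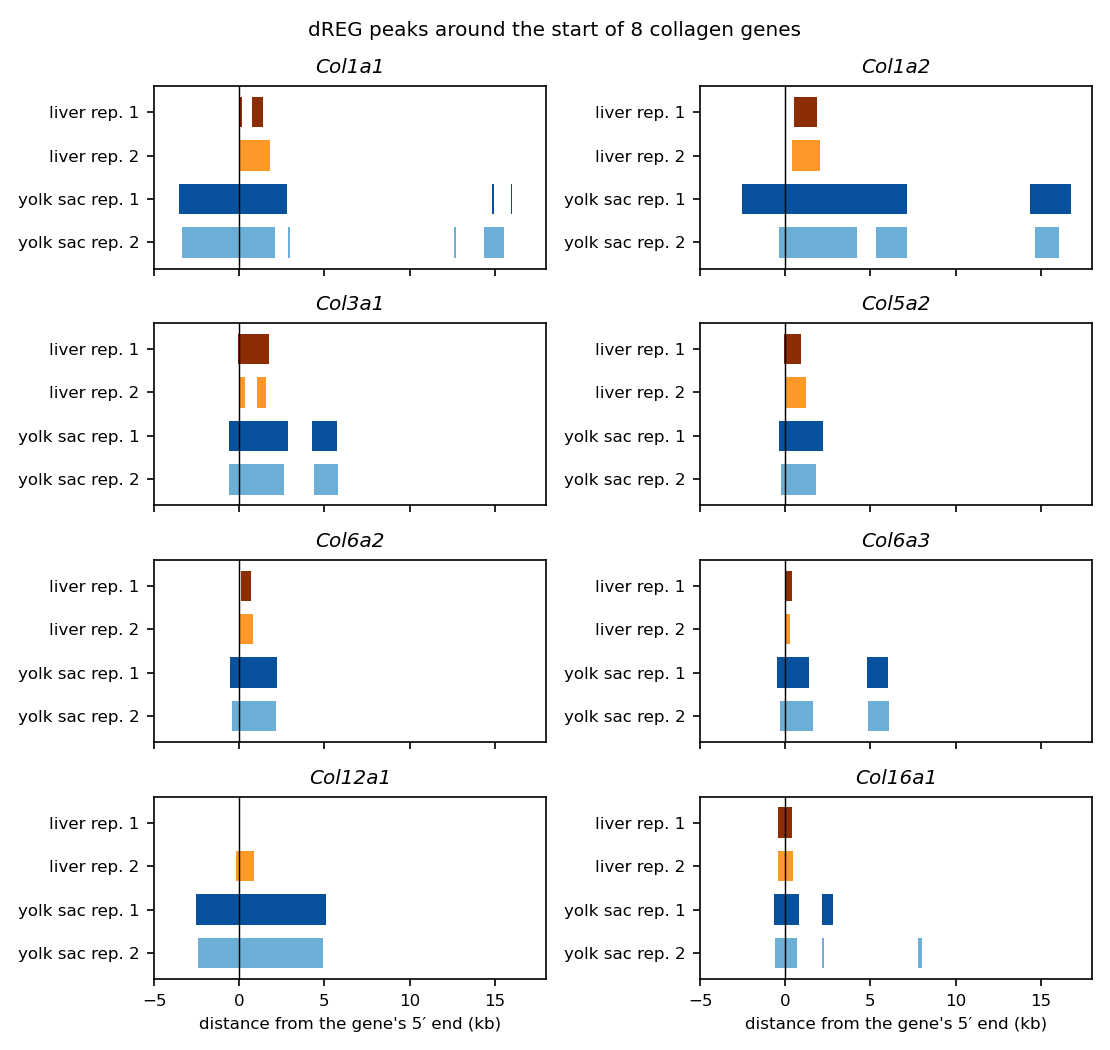
Position of dREG peaks (bars) around the start of 8 collagen genes in the 4 libraries, as distance in kb from the gene's 5′ end (vertical line) along the direction of transcription. Yolk sac bars at Col1a1, Col1a2 and Col12a1 reach upstream and downstream of the liver bars, which are 1752 bp or less.

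Wide promoter peaks were rare at collagens in liver and frequent in yolk sac. A promoter peak over 2000 bp was present at 1 of 12 and 1 of 16 called collagens in the liver libraries, where the background was 33.3% and 24%. In yolk sac it was present at 13 of 28 and 12 of 25, where the background was 34.8% and 25.4%. Both wide liver peaks were at Col18a1.

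Score percentiles followed the same direction less evenly. Over the 12 genes called in all 4 libraries the median percentile was 39.1 and 44.5 for liver and 74.5 and 79.1 for yolk sac, a difference of 35.0 (exact permutation p = 0.333). The same medians over all protein-coding genes were 68.5 and 68.7 in liver and 72.8 and 73.4 in yolk sac. For collagens the percentile was higher in both yolk sac libraries for 8 of the 12 (background 34.4%) and higher in both liver libraries for 1, Col16a1 (background 22.1%). The 8 include Col18a1, represented in the tissues by peaks at different starts. At its shared start 52602 bp inside the gene the percentiles overlapped, at 76.1 and 59.0 in liver against 63.1 and 80.6 in yolk sac. At its 5′ end liver lay at 20.8 and 27.6 and yolk sac higher, at 75.4 and 70.1. A percentile depends on the length of its list. In lists of equal length 4 of 11 collagens were higher in both yolk sac libraries, beside a background of 12.9%. These were Col1a1, Col1a2, Col27a1 and Col6a2. The reverse held for 1, Col5a1, at 42.5 and 49.0 against 21.6 and 7.83, beside a background of 52.3%. In width, 9 of the 11 were wider in both yolk sac libraries (background 35.3%) and 1, Col18a1, in both liver libraries (background 20.2%). For Col18a1 these were again peaks at different starts.

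The liver libraries differed from each other at collagens. Col11a1, Col12a1, Col14a1 and Col15a1 were called in liver replicate 2 and both yolk sac libraries but not in liver replicate 1, beside a background of 2.23%. No collagen showed the mirror pattern with liver replicate 1, beside a background of 0.629%. Without liver replicate 2 the yolk-sac-only genes numbered 13. Genes known from mesenchymal and fibroblast cells split the same way: of 12 listed, 5 were called in liver replicate 1, 10 in replicate 2 and 11 in each yolk sac library. Pdgfra, Dcn, Lum, Twist2 and Hand2 were missing from liver replicate 1 alone. Genes of yolk sac endoderm split the other way in liver, with 4 of 6 called in replicate 1 and 2 in replicate 2. Lrp2, Apoa4 and the hepatoblast gene Afp were called in liver replicate 1 and not in replicate 2. The part of these markers in the collagen calls was not tested.

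Marker genes matched the tissue labels in the main. The background for their counts was 56.1% and 57.9% in liver and 63.8% and 62.5% in yolk sac. All 8 erythroid genes were called in both liver libraries, and 6 of them in no yolk sac library. These were Slc4a1, Klf1, Gata1, Alas2, Hba-a1 and Hbb-bt. Each yolk sac library had a call at all 6 yolk sac endoderm genes, with Cubn and Amn yolk-sac-only. Of 6 hepatoblast genes, 4 and 3 were called in liver and 4 in each yolk sac library; Cps1 was liver-only and Fgb yolk-sac-only. Mesothelial genes were called in yolk sac, 3 of 4 in each library, and in no liver library, the 3 being Wt1, Msln and Upk3b.

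Other cell types that make collagen gave smaller contrasts. Of 4 stellate cell genes, 2 and 3 were called in each tissue. Hhip was yolk-sac-only, and Lhx2 was called in all 4 libraries with higher percentiles in yolk sac. Reln went the other way, at 87.7 and 71.3 in liver and at 1.19 in yolk sac replicate 2 alone. Lrat was called in liver replicate 2 alone, at 2.84. Of 6 smooth muscle and pericyte genes, 2 were called in each liver library and 3 in each yolk sac library, with Myh11 yolk-sac-only. Of 8 endothelial genes, 5 and 7 were called in liver and 8 in each yolk sac library, with Emcn yolk-sac-only. Of 6 chondrocyte genes, 2 and 1 were called in liver and 4 in each yolk sac library, with Hapln1 and Comp yolk-sac-only. In lists of equal length the mesenchymal, smooth muscle, mesothelial, endothelial and chondrocyte counts overlapped between tissues, and of the lists with more calls in yolk sac the endoderm list alone remained, at 4 and 2 against 5 and 6. The hepatoblast list then had more calls in liver, at 4 and 3 against 2 and 1. Among the other chondrocyte genes, Sox9 was called in all 4 libraries, at 19.5 and 11.3 in liver and 33.5 and 10.3 in yolk sac. Matn3 was called in liver replicate 1 and both yolk sac libraries, and Acan and Matn1 in no library. The cartilage collagens Col2a1 and Col9a2 were called in both yolk sac libraries, with the higher-scoring Col2a1 peak at a start inside the gene. The cell source of these calls was not tested.

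Genes for collagen synthesis and processing were called in both tissues. Of 31 genes, 24 and 28 were called in liver (background 56.1% and 57.9%) and 28 and 27 in yolk sac (background 63.8% and 62.5%). There were 23 in all 4 libraries and none confined to 1 tissue. P4ha3, Adamts2, Loxl1 and Loxl4 were missing from liver replicate 1 alone, a combination with a background of 2.23%. In liver replicate 2 they lay at 11.9, 19.1, 16.3 and 0.0123, and in yolk sac at 71.2 to 99.4. Pcolce2 was missing from yolk sac replicate 2 alone, at 99.3 and 94.7 in liver and 39.4 in yolk sac replicate 1. Of the 23, the percentile was higher in both yolk sac libraries for 6, higher in both liver libraries for 6 and overlapping for 11. The background was 34.4% higher in yolk sac and 22.1% higher in liver. In lists of equal length the numbers were 3, 10 and 7 of 20. The background there was 12.9% for yolk sac and 52.3% for liver, so these shares were near it. The 3 higher in yolk sac there were Serpinh1, Lox and Pcolce. With all peaks, Serpinh1, the collagen chaperone of the endoplasmic reticulum, lay at 40.1 and 49.0 in liver and 85.8 and 72.8 in yolk sac. Lox, which cross-links collagen, lay at 35.2 and 38.3 against 89.5 and 89.7. Pcolce, an enhancer of procollagen cleavage, lay at 33.2 and 42.7 against 93.7 and 89.6. In the other direction, Loxl3, also of the lysyl oxidase family, lay at 97.5 and 91.3 against 49.2 and 60.0, and the prolyl hydroxylase gene P3h1 at 95.0 and 98.9 against 80.4 and 87.9. These genes were chosen after their values were seen. P3h4 and Fkbp10 share 1 peak and are not independent.

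Collagen receptors showed 1 gene in each direction. Of 10 receptor genes, 5 and 7 were called in liver and 7 in each yolk sac library. These counts were near the background of 56.1% and 57.9% in liver and 63.8% and 62.5% in yolk sac. Itga11, an integrin chain of fibroblasts that binds fibrillar collagen, was yolk-sac-only at 31.3 and 16.5. Lair1, an inhibitory collagen receptor of leukocytes, was liver-only at 80.0 and 63.9. Ddr2, a receptor tyrosine kinase for fibrillar collagen, and Mrc2, an endocytic collagen receptor, were absent from liver replicate 1 and called in the other 3 libraries.

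Peaks inside the collagen genes were also more numerous in yolk sac, at about the rate of other genes. Body peaks, with their midpoint in the gene and away from its annotated starts, numbered 25 and 22 in the liver libraries and 70 and 52 in the yolk sac libraries. The means were 23.5 ± 2.12 and 61 ± 12.7 (SD, n = 2; exact permutation p = 0.333), a 2.60-fold difference. Per 100 kb of gene this was 0.579 and 0.509 peaks for liver against 1.62 and 1.20 for yolk sac. All protein-coding genes had 0.659 and 0.612 in liver and 1.76 and 1.44 in yolk sac, a 2.52-fold difference. In lists of equal length the collagen counts were 24 and 22 in liver and 17 and 19 in yolk sac, so the direction turned.

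In 15 collagens each yolk sac library had more body peaks than each liver library, beside a background of 17.4%, and 1 with the reverse, beside a background of 3.48%. The collagens are long genes, with a median length of 104786 bp against 17425 bp over all protein-coding genes. In lists of equal length the numbers were 7 (background 5.43%) and 4 (background 7.76%). Of 92 merged body regions, 36 were yolk-sac-only, which is 39.1% against 37.2% of the regions of all genes, and 9 were liver-only, 9.78% against 8.85%. Leaving out yolk sac replicate 2 gave 59 yolk-sac-only regions. The shares at collagens were near the background. Of the 92 regions, 23 overlapped an exon of the gene and 69 lay within introns.

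Col14a1 had the widest gap in body peaks, with none in liver and 5 in each yolk sac library. Col27a1 had 1 and 0 in liver and 8 and 5 in yolk sac. Col12a1 had none in liver and 4 and 3 in yolk sac. Col25a1 likewise had none against 5 and 3, Col6a3 none against 3 and 3, and Col15a1 2 and 1 against 5 and 7. Col23a1 was the gene with more body peaks in liver, at 5 in each library against 3 and 1.

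**Figure D5:**
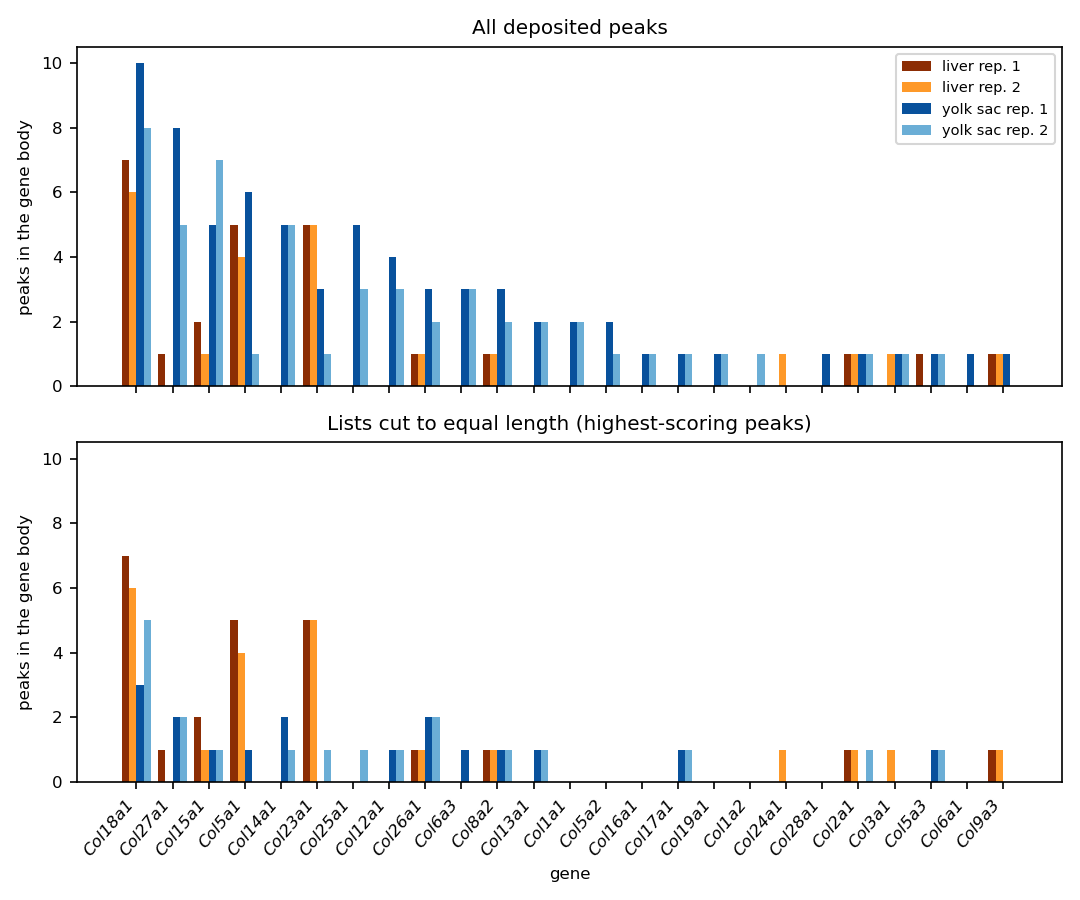
Number of dREG peaks in the body of each collagen gene with at least 1 (vertical axis, from 0), by library (colours), with all deposited peaks in the upper panel and with lists of equal length in the lower panel. Col14a1 goes from 5 and 5 yolk sac peaks to 2 and 1, while Col23a1 keeps 5 peaks in each liver library.

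The yolk-sac-only body region with the highest pair of percentiles lay in Col17a1, at chr19:47658851-47659952, with 99.4 and 99.7. It overlaps an exon of Col17a1, a gene with no promoter peak in any library. The next lay in an intron of Col26a1, at chr5:136810301-136811702, with 97.2 and 97.0. The third overlapped an exon of Col12a1, at chr9:79607701-79609552, with 94.8 and 85.3. None had an annotated start of another gene within 500 bp.

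Liver-only body regions were found in 3 genes, 5 in Col23a1, 3 in Col5a1 and 1 in Col9a3. The highest lay over an exon of Col5a1, at chr2:28004701-28006252, with percentiles of 96.5 and 91.0. The next were in an intron of Col23a1, at chr11:51403451-51405602, with 59.0 and 85.3, and in an intron of Col5a1, at chr2:27999451-28000902, with 63.3 and 54.0. Both genes were called at the promoter in all 4 libraries, with wider promoter peaks in yolk sac. Col15a1 held a body region called in all 4 libraries, at chr4:47293401-47296202, at 84.4 and 87.3 in liver and 32.4 and 17.7 in yolk sac. This is the opposite order to the percentiles of the Col15a1 promoter peak.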

How the data were processed

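PRO-seq peak lists of 2 liver and 2 yolk sac libraries were used, 1 list per library. The deposited score of each peak, in the fifth column, has no unit, was used here within a list and was 0.80 or more in each list. The submitters' processing notes name mm10, Bowtie2 and bedtools without roles. The word dREG stands in the names of the deposited lists, and its version and filters are not given in the sources used here.

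Positions were matched to GENCODE vM21 on GRCm38, with Python 3.11.15, numpy 2.4.6, pandas 2.3.3, scipy 1.17.1 and matplotlib 3.10.9. A peak was a promoter peak when it overlapped a 500 bp window around a start by at least 1 bp, the highest-scoring one standing for the gene, and a body peak when its midpoint lay in the gene outside those windows. All collagen genes were reported. Named body regions are the 3 per tissue with the highest lower percentile, and named genes outside the collagens are those called in both libraries of 1 tissue alone; a few others were named after their values were seen. Nothing in the labels says that the pools of a tissue came from separate litters. The permutation p-values compare the 6 assignments of these 4 libraries to tissues and do not measure a spread. The collagens and all lists were chosen with earlier results of these data known. The calling functions, tested on simulated peaks, returned 200 of 200 promoter and 200 of 200 body patterns. Those peaks were centred on a start or lay far from all starts of the gene. Wide peaks over several starts and peaks at a window's edge were not simulated, so this checks the code alone. The alternatives were shorter lists, other windows and starts, other body rules, leaving out each library, and the replicate block.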

Additional observations from a re-analysis of the deposited data

How the results depend on the processing

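Score selection moved the values most. With lists shortened to their 24333 highest scores, the tissue difference in called collagens was 7, yolk-sac-only genes were 5, and 3 classes and 1 list had more called genes in yolk sac, in place of 6 and 6. The difference in body peaks turned to -5, genes with more body peaks were 7 for yolk sac and 4 for liver, yolk-sac-only and liver-only regions were 10 and 15, and the median percentile difference was 17.7. With the higher-scoring 50% of each list, the difference in called collagens was 15.5, yolk-sac-only genes were 14, 1 gene was liver-only (Col16a1) and 1 was called in all 4 (Col18a1). That gene alone, represented in the tissues by peaks at different starts, gave a width difference of -1425 bp and a percentile difference of 31.1. The difference in body peaks was then 6.5, genes with more body peaks were 8 for yolk sac and 2 for liver, and yolk-sac-only regions were 11. With the most upstream start the percentile difference was 40.4. Taking the widest promoter peak of each gene, an alternative chosen after seeing the data, gave a width difference of 1600 bp. Leaving out 1 library at a time gave 1 to 3 genes with more body peaks in liver, 37 to 59 yolk-sac-only regions and a percentile difference of 32.7 to 44.1; without yolk sac replicate 1 the first was 3, without liver replicate 1 it was 2. Of the other values of this kind, 98 counted as unchanged, as did 325 calls of single genes, while 55 such calls moved and 0 reversed. For counts, a ratio above 1.5 was taken as a change, so the 98 include smaller shifts. Among them, yolk-sac-only genes went from 9 to 13 without liver replicate 2. With the replicate block the differences were 12.5 genes, 37.5 body peaks, 1400 bp and 35.0 percentile points, each with an exact sign-flip p of 0.5, the smallest possible. Deviations of same-numbered libraries had a correlation of -0.0106 over the 11805 genes called in all 4 libraries. With 2 libraries per tissue this cannot show whether same-numbered libraries share a pool, litter or batch. The depth of the libraries is unknown, so a missing peak does not show that initiation was absent.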
